A study of Homo sapiens with 6 samples.

Results

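The early growth response (EGR) zinc finger factors, their corepressors and other immediate early genes were followed in HepG2 cells given TGFβ for 3 h. The set was defined by name, and its members were chosen with earlier results of these data known. It held 10 of the 57773 genes of the deposited count table: EGR1, EGR2, EGR3, EGR4, NAB1, NAB2, IER2, IER3, SRF and NR4A1. HepG2 is an established line from a human liver tumor that grows as hepatocyte-like epithelial cells. Per the study's methods, the cells were seeded the day before, washed and moved to MEM without serum, and then received rhTGFβ1 at 5 ng/mL (TGFβ group, 3 cultures) or the same volume of vehicle alone (vehicle group, 3 cultures). No genetic change was made, both groups went through the same wash and medium change, and no culture without it was analysed here. Poly(A) RNA was sequenced, and the question was which genes of this set differed in mRNA between the groups at 3 h.

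Immediate early genes are transcribed within minutes of a stimulus without new protein synthesis, in large part because the factors that switch them on are already in the cell. Serum response factor (SRF), together with ternary complex factors downstream of ERK or with the actin-regulated MKL (MRTF) coactivators, binds CArG boxes upstream of many of them, EGR1 among these. The EGR proteins then bind GC-rich sites in a further layer of genes, and NAB1 and NAB2 bind EGR proteins and mostly repress what they activate.

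Across the 6 cultures, 60815385 to 100099136 reads were counted on genes. Of 22747 genes tested, 707 (3.11%) were higher and 230 (1.01%) lower with TGFβ at a false discovery rate (FDR) under 0.05 (edgeR's quasi-likelihood F test, Benjamini-Hochberg). Same-numbered cultures of both groups deviated together, and when culture number was added as a block, 1837 genes (8.08%) were higher and 853 (3.75%) lower. In 2370 genes (10.4%) the lowest TGFβ culture exceeded the highest vehicle culture. The TGFβ target genes PMEPA1, SKIL and SMAD7 were higher by 4.30 (SE 0.28), 2.45 (SE 0.11) and 1.72 (SE 0.11) on the log2 scale. Markers of the hepatocyte lineage, albumin and HNF4A among them, were all expressed, with summed levels of 37350 to 41830 CPM with vehicle and 35910 to 40680 CPM with TGFβ (CPM, the read count scaled to library depth, here with TMM factors). None of the 9 was called, while with the block TTR (-0.25, edgeR FDR = 0.0495) and FGB (-0.22, edgeR FDR = 0.0331) were called lower. In such bulk samples, fewer cells expressing a gene and less mRNA per cell cannot be told apart.

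All 10 members passed the filter on low counts. EGR3 and IER2 were called higher and none lower, 2 of 10 against the background of 3.11% of tested genes for higher calls and 1.01% for lower calls. With the replicate block EGR1, IER3 and SRF were called as well, 5 of 10 against 8.08% of tested genes, and again 0 were lower, against 3.75%. In 4 of 10 members (EGR3, IER2, IER3 and SRF) every TGFβ culture lay above every vehicle culture, against 10.4% of tested genes. The fitted log2 fold change was positive in 10 of 10 members, with a median of 0.52, where 49.0% of all tested genes were positive and their median was -0.0054.

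**Figure D1:**
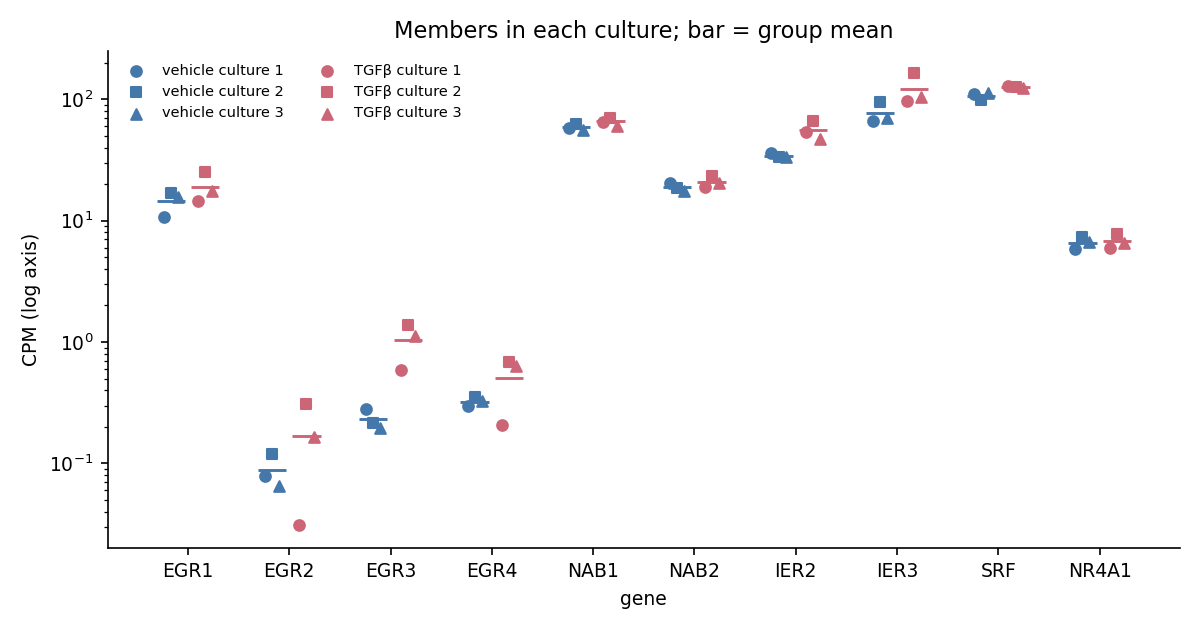
CPM of the 10 members in each culture on a log axis, vehicle in blue and TGFβ in red, with the culture number as the marker shape and a bar at the group mean (n = 3). EGR3, IER2, IER3 and SRF have no overlap between groups, and EGR2, EGR3 and EGR4 lie orders of magnitude below SRF and IER3.

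EGR1 is the founding member of the family and the one with most mRNA in these cells. It lies on the plus strand at chr5:137801179-137805004 (hg19, ENSG00000120738), with 2 exons in its canonical GENCODE transcript. The 250 bases upstream of its RefSeq start hold 2 CArG boxes, and sequence further upstream was not searched. The 250 bases before the start are shown to place them (GRCh38.p14, RefSeq, chr5:138465229-138465478, plus strand, CArG boxes in capitals).
EGR1: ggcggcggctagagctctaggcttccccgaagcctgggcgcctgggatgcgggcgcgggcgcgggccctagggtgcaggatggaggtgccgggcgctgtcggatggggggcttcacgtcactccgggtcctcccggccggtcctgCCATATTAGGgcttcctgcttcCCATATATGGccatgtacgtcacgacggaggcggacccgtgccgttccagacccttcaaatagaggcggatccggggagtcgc

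EGR1 stood at 10.6, 16.7 and 15.8 CPM in vehicle cultures 1, 2 and 3, and at 14.6, 25.2 and 17.5 CPM in TGFβ cultures 1, 2 and 3. TGFβ culture 1 lay below 2 of the vehicle cultures, so the groups overlapped, while each TGFβ culture was above the vehicle culture of the same number. The means were 14.4 ± 3.28 and 19.1 ± 5.49 CPM (SD, n = 3). The log2 fold change was 0.41 (SE 0.21, 95% interval -0.07 to 0.89), which did not pass the test (edgeR FDR = 0.484). With the replicate block the difference was 0.40 (SE 0.09) and was called (edgeR FDR = 0.0114). The differences within numbers 1, 2 and 3 were 0.45, 0.59 and 0.15, and without TGFβ culture 2 the unblocked value was 0.15.

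EGR3, on the minus strand at chr8:22545172-22550815 (hg19, ENSG00000179388, 2 exons), had the largest fold change of the 10 members. The study followed EGR3 further after seeing these libraries, so its direction here is not independent evidence. Its reads numbered 25, 18 and 12 under vehicle against 57, 112 and 81 under TGFβ, or 0.283, 0.217 and 0.195 CPM against 0.588, 1.39 and 1.11 CPM. The groups did not overlap, and TGFβ culture 1 lay nearest to the vehicle cultures. EGR3 rose by 2.12 on the log2 scale (SE 0.36, 95% interval 1.32 to 2.93, edgeR FDR = 0.00886), a 4.35-fold difference. The differences within culture numbers were 0.99, 2.55 and 2.37. The call did not hold without vehicle culture 2 (2.07, edgeR FDR = 0.0505) or without vehicle culture 3 (2.03, edgeR FDR = 0.0532). An annotated lncRNA on the opposite strand overlaps EGR3 and had 0, 2 and 1 reads against 1, 11 and 6. Even after the rise, EGR3 mRNA was scarce: it made up 0.768% to 1.62% of the summed RPKM of the EGR genes with vehicle and 2.49% to 3.75% with TGFβ, with no overlap, while EGR1 held 91.2% to 96.3% of it in every culture.

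EGR2, known for its role in Schwann cell myelination, was close to the limit of what these libraries can count. It lies on the minus strand at chr10:64571756-64679660 (hg19, ENSG00000122877), a span that in the deposited table is longer than the 2-exon GENCODE gene, which ends at 64578927. Read counts were 7, 10 and 4 for vehicle against 3, 25 and 12 for TGFβ. TGFβ culture 1 was the lowest of all 6 cultures and TGFβ culture 2 the highest. The log2 fold change of 0.86 (SE 0.69, 95% interval -0.67 to 2.40) did not pass the test (edgeR FDR = 0.709), and a difference of the size seen for EGR3 lies within that interval.

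One of the 3 RefSeq starts of EGR2 has a CArG box upstream, at -71 to -62, flanked by CRE cores as in EGR1. The 250 bases before that start are shown for comparison with EGR1 (GRCh38.p14, RefSeq, chr10:62816367-62816616, minus strand, CArG box in capitals).
EGR2: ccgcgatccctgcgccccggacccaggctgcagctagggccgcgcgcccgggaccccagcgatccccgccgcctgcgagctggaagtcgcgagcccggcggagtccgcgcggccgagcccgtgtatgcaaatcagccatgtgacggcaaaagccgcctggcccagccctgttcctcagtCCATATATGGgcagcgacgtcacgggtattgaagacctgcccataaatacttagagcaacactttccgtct

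EGR4, a relative best known from neurons and testis, is on the minus strand at chr2:73518058-73520833 (hg19, ENSG00000135625, 2 exons). Its read counts were 26, 29 and 20 under vehicle against 20, 55 and 46 under TGFβ. As in EGR2, TGFβ culture 1 was the lowest of all 6, at 0.206 CPM, while TGFβ cultures 2 and 3, at 0.684 and 0.631 CPM, were above the vehicle cultures, at 0.295 to 0.350 CPM. A log2 fold change of 0.63 resulted (SE 0.42, 95% interval -0.31 to 1.57, edgeR FDR = 0.623). The block left EGR2 and EGR4 uncalled (edgeR FDR = 0.449 and 0.375).

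NAB1 and NAB2, the corepressors that bind EGR proteins, differed little. NAB1 lies on the plus strand at chr2:191511472-191557492 (hg19, ENSG00000138386, 10 exons) and stood at 58.0, 62.2 and 56.3 CPM with vehicle and 65.5, 70.7 and 60.6 CPM with TGFβ. Only vehicle culture 2 reached into the TGFβ range. Its log2 fold change was 0.16 (SE 0.08, 95% interval -0.02 to 0.34, edgeR FDR = 0.473), with differences of 0.18, 0.18 and 0.11 within culture numbers, and the block did not make it a call (edgeR FDR = 0.0800). NAB2, which is itself an EGR target in other cells, lies on the plus strand at chr12:57482677-57489259 (hg19, ENSG00000166886, 7 exons). Its levels were 20.3, 18.6 and 17.6 CPM against 19.0, 23.3 and 20.4 CPM, which overlapped, and the log2 fold change was 0.15 (SE 0.10, 95% interval -0.08 to 0.38, edgeR FDR = 0.630). The intervals of both corepressors lie below the EGR3 interval, whose lower bound was 1.32.

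IER2, a small nuclear immediate early protein, separated the groups completely. It lies on the plus strand at chr19:13261229-13265722 (hg19, ENSG00000160888, 2 exons). Vehicle cultures held 35.8, 33.7 and 33.2 CPM and TGFβ cultures 53.4, 66.0 and 47.3 CPM. The groups did not overlap, and the vehicle cultures lay within a narrow range (34.2 ± 1.41 CPM, SD, n = 3) while the TGFβ cultures spread more widely (55.6 ± 9.52 CPM). The log2 fold change was 0.70 (SE 0.11, 95% interval 0.44 to 0.96, edgeR FDR = 0.00757), and it stayed a call in 6 of 6 fits that each left out 1 culture, with values of 0.55 to 0.80. An annotated antisense lncRNA within the IER2 span, CTC-250I14.6, had a log2 fold change of 0.67 (edgeR FDR = 0.00522). The strand setting of the counting is not given in the sources used here, so reads of IER2 and of that lncRNA cannot be told apart.

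No CArG box was found in the window of IER2, and a single CRE core lies at -140 to -136. Its upstream 250 bases are shown as those of the member called without the block and in all 11 other fits tried (GRCh38.p14, RefSeq, chr19:13150161-13150410, plus strand, CRE core CGTCA in capitals).
IER2: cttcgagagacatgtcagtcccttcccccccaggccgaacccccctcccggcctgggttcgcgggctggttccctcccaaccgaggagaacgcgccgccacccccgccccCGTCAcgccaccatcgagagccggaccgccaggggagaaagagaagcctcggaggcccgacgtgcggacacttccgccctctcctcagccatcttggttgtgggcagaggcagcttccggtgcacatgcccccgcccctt

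IER3, a stress-inducible protein that modulates cell survival, had the most mRNA per length of the set. It lies on the minus strand at chr6:30710976-30712331 (hg19, ENSG00000137331, 2 exons). Its levels were 66.8, 94.8 and 70.4 CPM with vehicle and 96.7, 163 and 105 CPM with TGFβ, and the lowest TGFβ culture exceeded the highest vehicle culture by a small margin. Cultures 2 were the highest of both groups. The log2 fold change of 0.65 (SE 0.20, 95% interval 0.22 to 1.09) was close to that of IER2 but did not pass the test (edgeR FDR = 0.120). With the replicate block it was 0.63 (SE 0.06) and was called (edgeR FDR = 2.96e-05), the differences within numbers being 0.53, 0.79 and 0.58. The antisense lncRNA XXbac-BPG252P9.10, which overlaps IER3, had a log2 fold change of 0.74 (edgeR FDR = 0.115, with the block 0.000294), and the same limit on strand applies. The opposite-strand neighbours that overlap NR4A1 (RP11-1100L3.8), NAB2 (STAT6) and NAB1 (AC006460.2) had log2 fold changes of 0.11, 0.01 and 0.05, none called (edgeR FDR = 0.892 to 0.981).

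SRF, the factor that binds CArG boxes, lies on the plus strand at chr6:43139037-43149243 (hg19, ENSG00000112658, 7 exons). It stood at 110, 97.8 and 113 CPM with vehicle and 129, 126 and 123 CPM with TGFβ. No TGFβ culture reached down into the vehicle range, and the TGFβ cultures were the tighter group (126 ± 3.18 against 107 ± 8.03 CPM, SD, n = 3). On the log2 scale the difference was 0.24 (SE 0.08, 95% interval 0.07 to 0.41, edgeR FDR = 0.155), and with the block 0.24 (SE 0.06), which was called (edgeR FDR = 0.0163). A pair of CArG boxes ends at the first RefSeq start of SRF itself, at -30 to -21 and -10 to -1. The sequence is shown because it places the SRF binding letters in the SRF gene (GRCh38.p14, RefSeq, chr6:43171019-43171268, plus strand, CArG boxes in capitals).
SRF: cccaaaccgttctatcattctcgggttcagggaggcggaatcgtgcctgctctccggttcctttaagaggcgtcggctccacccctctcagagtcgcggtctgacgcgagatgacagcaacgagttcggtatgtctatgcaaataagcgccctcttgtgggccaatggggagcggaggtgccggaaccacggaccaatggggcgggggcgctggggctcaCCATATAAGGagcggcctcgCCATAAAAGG

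NR4A1 (Nur77), an orphan nuclear receptor and a common immediate early gene, is on the plus strand at chr12:52416616-52453291 (hg19, ENSG00000123358, 7 exons). Its levels were 5.86, 7.31 and 6.64 CPM under vehicle and 5.96, 7.72 and 6.54 CPM under TGFβ, nearly the same range in both groups. The fitted log2 fold change was 0.03 (SE 0.14, 95% interval -0.29 to 0.35, edgeR FDR = 0.960), and its sign turned under total-count scaling (-0.01). The interval leaves room for a rise of the size seen for SRF but not for one of the size seen for IER2.

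**Figure D2:**
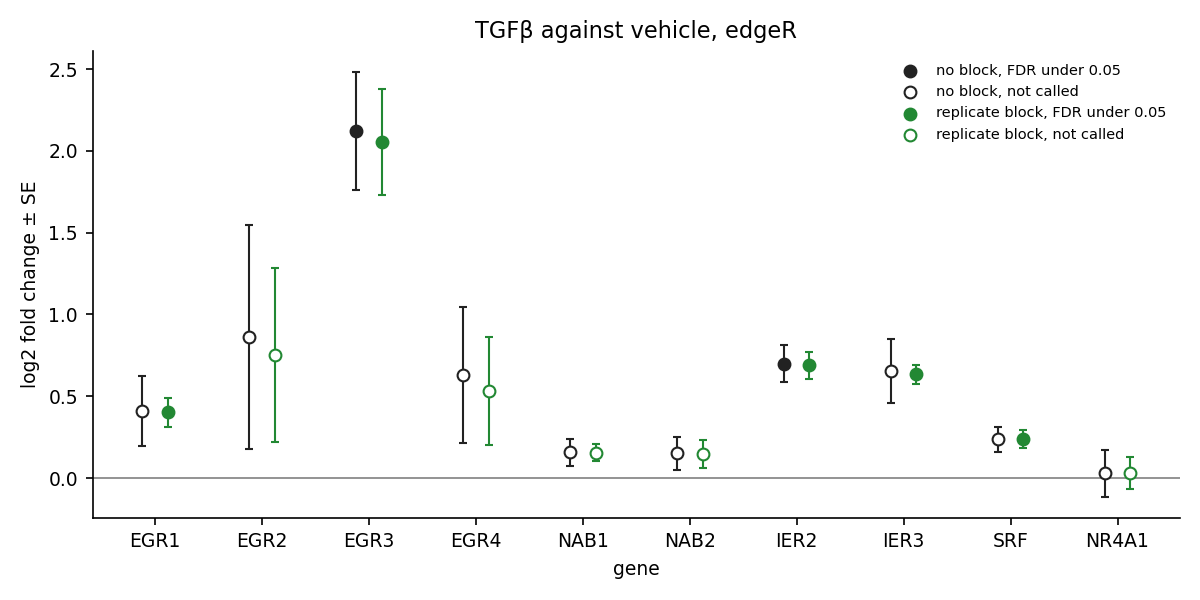
Log2 fold change with its SE for each member, TGFβ against vehicle, from edgeR without a block (black) and with culture number as a block (green). Filled points have an FDR under 0.05: EGR3 and IER2 in both fits, and EGR1, IER3 and SRF with the block.

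The cultures differed in how far the set moved. Between cultures 1 the log2 difference was positive in 7 of 10 members (median 0.21), between cultures 2 in 10 of 10 (median 0.69) and between cultures 3 in 9 of 10 (median 0.36), where the medians over all tested genes were 0.0000, 0.0046 and 0.0033. TGFβ culture 2 was the highest of its group in 9 of 10 members, SRF being the exception, and TGFβ culture 1 was the lowest in 7 of 10. Over all tested genes, TGFβ culture 2 was the highest of its group in 32.4% and TGFβ culture 1 the lowest in 30.3%. Vehicle culture 2 was the highest of its group in 6 of 10 members, against 31.1% of tested genes. Cultures 1 of both groups shared lane 1 and cultures 2 shared lane 3, while cultures 3 were on lanes 4 (vehicle) and 5 (TGFβ). Within a group each culture had its own lane, so lane and culture cannot be told apart. Between cultures 3, lane and treatment cannot be told apart either.

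**Figure D3:**
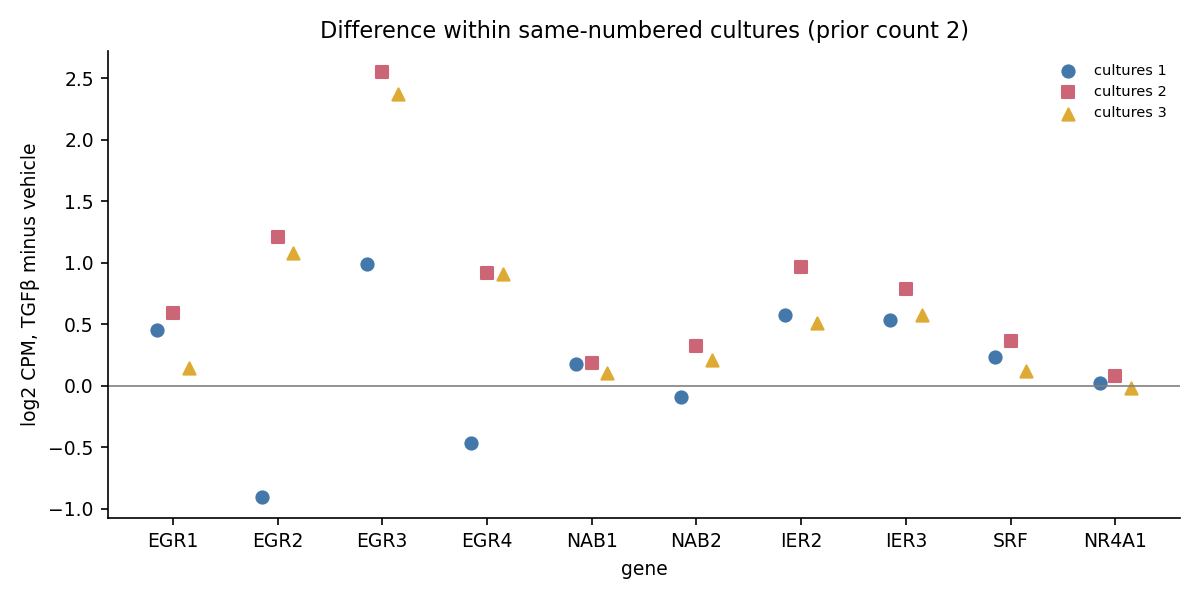
Log2 CPM of each TGFβ culture minus the vehicle culture of the same number, for the 10 members (prior count 2). Cultures 2 (squares) give the highest difference in every member, and those of EGR2, EGR4 and NAB2 fall below 0 for cultures 1.

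On the RPKM scale, which divides by gene length, the vehicle means ran in the order IER3 (47.3), SRF (20.7), NAB1 (9.96), IER2 (9.21), NAB2 (5.17), EGR1 (3.80), NR4A1 (0.750), EGR4 (0.113), EGR3 (0.0395) and EGR2 (0.0199). Of these neighbours only NAB1 and IER2 had overlapping ranges. IER3 stood at the percentile 96.4 of the tested genes and EGR2 at the percentile 1.06. With TGFβ, IER2 (14.6 RPKM) had moved ahead of NAB1 (10.8 RPKM) with overlapping ranges, EGR1 (4.92) overlapped NAB2 (5.60), and EGR3 (0.171) had drawn level with EGR4 (0.172). The order among the others was as with vehicle.

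The canonical transcripts of EGR1 to EGR4, IER2 and IER3 have 2 exons, a number not exceeded in 6.79% of 14045 tested coding genes, whose median was 9 exons. Matches to motifs were counted on both strands in RefSeq windows of 250 bases before and 50 after a start, which were found for 8 of the 10 members (14 windows). Because a gene with several starts has more windows to match, the shares are given per window. CArG boxes were present in 3 of the 14 windows, of EGR1, EGR2 and SRF, against 1.29% of all 35116 windows. The EGR site GCGGGGGCG or GCGTGGGCG was in 4 windows, of NAB1, NAB2 and SRF, against 5.77% of all windows; in NAB1 a pair of these matches overlapped each other, and 2 of its windows overlap and share them. The CRE core TGACG or CGTCA was in 8 windows, of EGR1, EGR2, EGR4, NAB1, IER2 and SRF (57.1%, against 24.6% of all windows). Of these, the 2 overlapping windows of NAB1 share the same match. The full CRE TGACGTCA was in 0 of the 14 windows, against 1.85% of all windows. The SMAD core GTCTG or CAGAC was in 6 windows, of EGR1, NAB2, IER2, SRF and NR4A1 (42.9%, near the 45.3% of all windows). In SRF a SMAD core and a CRE core overlap. A match of letters is not a measured binding site.

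**Figure D4:**
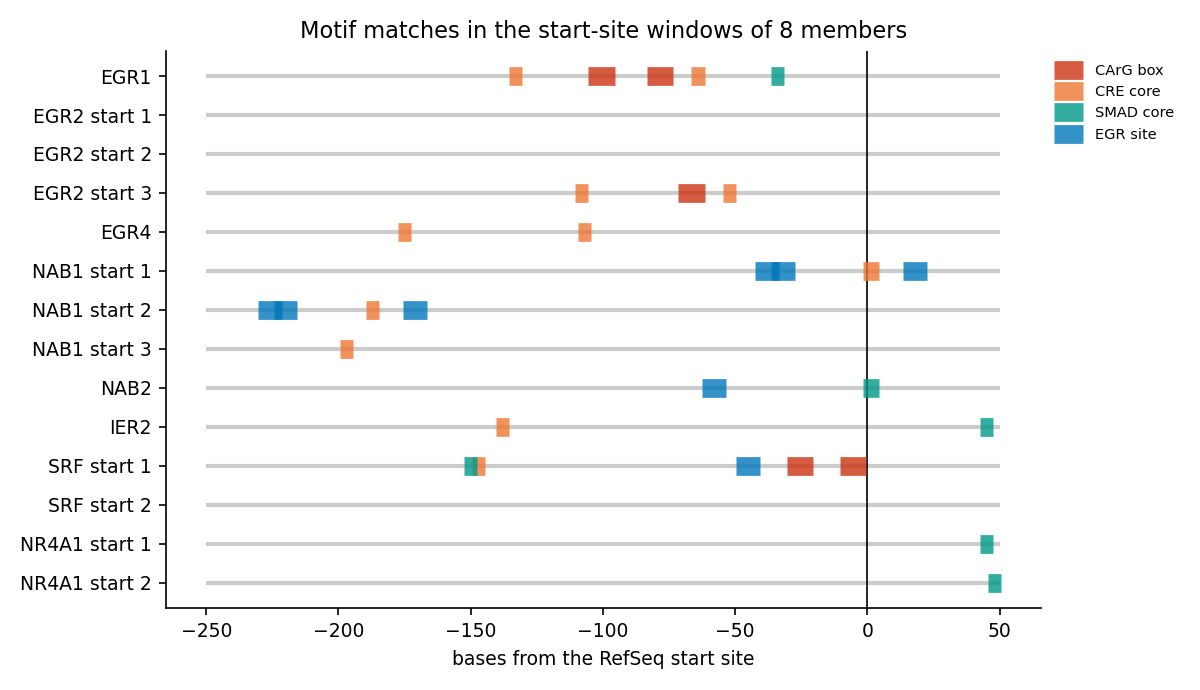
Motif matches in the RefSeq windows of 8 members, with bases from the start site on the x axis and one line per start. CArG boxes (red) lie upstream of EGR1, 1 start of EGR2 and 1 start of SRF, and EGR sites (blue) in NAB1, NAB2 and SRF.

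Of a list of 40 other immediate early genes, 36 were tested, and 17 of them were higher and 2 lower at an FDR under 0.05, where 3.11% and 1.01% of all genes were. With the block 23 were higher and 3 lower, where 8.08% and 3.75% of all genes were. The median log2 fold change was 0.49. This list and those below were, like the members, chosen with earlier results of these data known. JUNB, a subunit of the AP-1 factor, had 7.71, 7.17 and 8.49 CPM with vehicle and 89.6, 111 and 94.4 CPM with TGFβ, and rose by 3.66 (SE 0.11, edgeR FDR = 6.29e-07). The AP-1 subunit FOSB rose by 1.88 (SE 0.30), the growth arrest gene GADD45B by 1.82 (SE 0.16), the TGFβ-inducible repressor KLF10 by 1.53 (SE 0.10) and the kinase SGK1 by 1.50 (SE 0.10). The proto-oncogene MYC fell by 1.08 (SE 0.08), from 128 to 141 CPM with vehicle to 57.8 to 68.0 CPM with TGFβ, and PHLDA1 fell by 0.48 (SE 0.09), a call that did not hold without vehicle culture 2 (edgeR FDR = 0.0556). FOS itself, the best known immediate early gene, was at 0.646, 0.676 and 0.780 CPM with vehicle and 0.568, 0.634 and 1.15 CPM with TGFβ, overlapping, and was named after its values were seen.

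Among close relatives of the members, IER5L had 6.36, 8.68 and 7.11 CPM with vehicle and 13.0, 16.3 and 12.8 CPM with TGFβ, a rise of 0.93 (SE 0.15, edgeR FDR = 0.00657). IER5 showed no overlap and a log2 fold change of 0.42 (SE 0.10) that missed the threshold without the block (edgeR FDR = 0.0571) and passed it with the block (edgeR FDR = 0.00792). The NR4A1 relatives had too few reads to be tested: the reads of NR4A3 numbered 3, 8 and 5 under vehicle against 21, 15 and 9 under TGFβ, and those of NR4A2 13, 9 and 14 against 12, 4 and 8. Of the retinoid X receptors, which pair with NR4A proteins, RXRA and RXRB were tested. Neither was called, where 3.11% of all tested genes were higher and 1.01% lower. With the block RXRA was called higher (0.41, edgeR FDR = 0.000245), where 8.08% of all tested genes were, and RXRB was not called. RXRG had 0 reads in every culture.

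Of 9 SRF cofactors and relatives, 7 were tested, and 3 were higher and 0 lower in both fits, against 3.11% and 1.01% of all genes (8.08% and 3.75% with the block). MKL1 (MRTF-A), the coactivator released by actin polymerization, had 48.0, 40.2 and 40.0 CPM with vehicle and 111, 113 and 100 CPM with TGFβ, and rose by 1.34 (SE 0.09, edgeR FDR = 5.74e-05). Its paralog MKL2 had a log2 fold change of -0.10 (SE 0.08, edgeR FDR = 0.690). Among the ternary complex factors, ELK3 rose by 0.90 (SE 0.14, edgeR FDR = 0.00629), while ELK1 (-0.15) and ELK4 (0.04) were not called, and the sign of ELK4 turned under total-count scaling. MEF2D, a relative of SRF, rose by 0.62 (SE 0.11), a call lost without vehicle culture 3 or without TGFβ culture 2 (edgeR FDR = 0.0591 and 0.0516).

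Next came cytoskeletal genes known as SRF and MRTF targets. Of 15 tested, 1 was higher (6.67%, near the 3.11% of all genes) and 0 lower. With the block 6 were higher and 0 lower, where 8.08% and 3.75% of all genes were, and the median unblocked log2 fold change was 0.20. The one called was zyxin (ZYX), which rose by 0.48 (SE 0.11, edgeR FDR = 0.0323), a call that ended when any one of 4 cultures was left out (edgeR FDR = 0.0970 to 0.163). Of 16 tested EGR target genes, 6 were higher and 1 lower, against 3.11% and 1.01% of all genes, with a median log2 fold change of 0.27. With the block 7 were higher and 2 lower, against 8.08% and 3.75%. The growth factor genes PDGFB and PDGFA rose by 2.12 (SE 0.22) and 1.62 (SE 0.13), CCND1 by 0.68 (SE 0.07) and TGFB1 by 0.65 (SE 0.09), and the death ligand TNFSF10 fell by 0.96 (SE 0.14). Like EGR3, TGFB1 was followed further by the study after seeing these libraries, so its direction here is not independent evidence.

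The ERK cascade and its feedback genes, which lie upstream of EGR1 in many cells, were called at close to the background rate without the block. Of 22 tested, 0 were higher and 1 lower, where 3.11% and 1.01% of all genes were. With the block 2 were higher and 2 lower, where 8.08% and 3.75% of all genes were, and the median unblocked log2 fold change was 0.07. Named after their values were seen, SPRY4 (0.33, edgeR FDR = 0.00271) and MAPK3 (0.24, edgeR FDR = 0.0119) were those higher with the block. SPRY1 (-0.26, edgeR FDR = 0.0103) was lower with it, besides DUSP6. The ERK phosphatase DUSP6, whose mRNA is induced by ERK activity, had 48.1, 61.9 and 51.8 CPM with vehicle and 24.5, 41.1 and 29.7 CPM with TGFβ and fell by 0.76 (SE 0.17, edgeR FDR = 0.0355). This call ended when any one of 5 cultures was left out (edgeR FDR = 0.0556 to 0.204) and without the filter on low counts (edgeR FDR = 0.261), while with the block it stood (edgeR FDR = 3.17e-05).

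**Figure D5:**
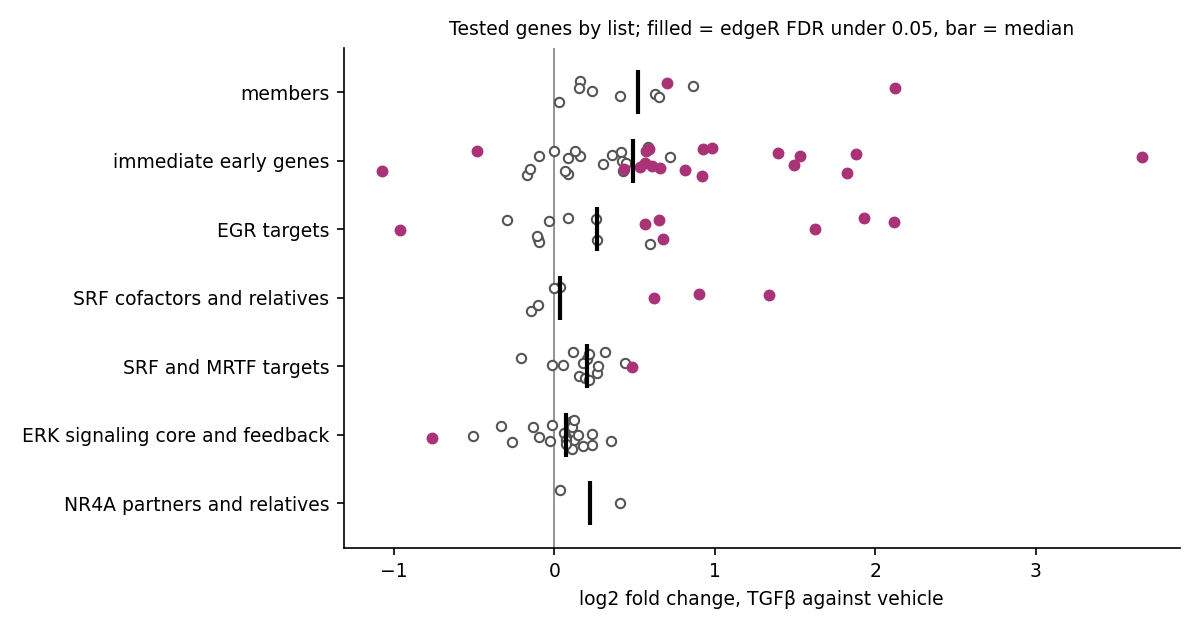
Log2 fold change of each tested gene by list, TGFβ against vehicle, with filled points at an edgeR FDR under 0.05 and a bar at the median of each list. The other immediate early genes reach from -1.08 (MYC) to 3.66 (JUNB), and the ERK list has 1 filled point, DUSP6.

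By the highest Pearson correlation of log2 CPM over the 6 libraries, the genes most like IER2 were ZNF609 (r = 0.997), PAQR4 (r = 0.996) and GRAP (r = 0.996), and those most like EGR3 were RP11-757F18.5 (r = 0.996), FAM149B1 (r = 0.994) and VDR (r = 0.994). An r of at least 0.99 was reached by 20 genes for IER2 and by 4 for EGR3. ZNF609 (log2 fold change 0.21), FAM149B1 (0.15) and RP11-757F18.5 (1.60) were not called (edgeR FDR = 0.176, 0.389 and 0.0770). PAQR4 (0.45), GRAP (1.51) and VDR (0.85) were called higher (edgeR FDR = 0.0166, 0.0107 and 0.0309). These genes were picked as the highest among all 22747 tested, over only 6 libraries that fall into treatment groups and in part share lanes. EGR3 itself had 12 to 112 reads per culture. The correlations are a description, and no test was run on them.

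Of markers for other cell types, the 8 fibroblast and stellate genes summed to 13.7 to 15.1 CPM with vehicle and 23.4 to 34.8 CPM with TGFβ. COL1A1 and PDGFRB carried nearly all of it and were the 2 that could be tested. Their log2 fold changes were 0.57 (edgeR FDR = 0.193) and 1.22 (edgeR FDR = 0.0582). Neither was called without the block, where 3.11% of all tested genes were called higher. Both were called higher with the block, where 8.08% of all tested genes were. COL1A2, COL3A1, PDGFRA, DCN, LUM and THY1 had at most 14 reads in any culture. The 6 leukocyte genes summed to 1098 to 1425 CPM with vehicle and 952 to 1046 CPM with TGFβ, nearly all of it LYZ. LYZ was lower in every TGFβ culture than in every vehicle culture, as were 1871 of 22747 tested genes. It was called lower with the block only (-0.34, edgeR FDR = 0.0157), where 3.75% of all tested genes were. CD3E was at 0 reads in every culture and PTPRC at no more than 1. The 4 endothelial genes found in the table summed to at most 0.272 CPM, and KDR was at 0 in every culture. What part, if any, other cells had in the results was not tested.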

How the data were processed

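RNA-seq of 6 HepG2 cultures (3 vehicle, 3 TGFβ) was analysed from the deposited table. Paired reads were aligned to hg19 by the authors, who deposited raw counts per gene (MAPRseq) and RPKM, the count divided by coding length and library total. TopHat2 2.0.6 and HTSeq stand in the submitters' processing notes. For the annotation release, counting rule and strand setting, nothing was given in the sources used here.

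Groups and culture numbers came from the labels, where nothing says how separate the cultures were, so P-values measure the spread between these samples. Counts were tested with edgeR 4.0.16 (R 4.3.3): TMM, filterByExpr, robust quasi-likelihood F test, no block, Benjamini-Hochberg over 22747 genes, called at an FDR under 0.05. Intervals are 95%. SEs are those implied by the F statistic. Deviations from the group mean correlated at 0.366, 0.227 and 0.316 between same-numbered cultures and at most 0.0101 otherwise, so culture number was treated as a pairing, which rests on the data and, for cultures 1 and 2, a shared lane. No replicates agreed within counting noise (chi-square 19.2 to 41.3 per gene). RPKM served only for levels between genes. Alternatives were DESeq2 1.42.0, other scalings, no filter, the replicate block and leaving out each culture. The unblocked edgeR fit and DESeq2 were tested on simulated data, and the fit with the replicate block was not. Gene spans and exons came from the table and GENCODE on GRCh37, and upstream sequence from RefSeq on GRCh38.p14.

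All members were named, and of each other list the called genes with the largest change, up to 5 higher and 5 lower, plus the close relatives IER5, IER5L, NR4A2, NR4A3, MKL1, MKL2, ELK1, ELK3 and ELK4. One gene that this rule names is not reported here. For likeness, the 3 genes with the highest correlation were taken for each called member. Members and lists were chosen with earlier results of these data known.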

Additional observations from a re-analysis of the deposited data

How the results depend on the processing

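Over 11 alternatives, 100 of 109 member values kept their direction and their side of the threshold, and over the 33 named genes tested 334 of 362 did, while 15 lost the call, 6 gained it and 7 changed sign; DESeq2 gave no adjusted P for EGR2, which is left out of these counts. The count of genes called, 937, was 1415 with DESeq2, 2690 with the replicate block and 485 to 998 when a culture was left out. The count of members called, 2, was 5 with the replicate block and 1 to 2 when a culture was left out: EGR3 was the member lost, without vehicle culture 2 or without vehicle culture 3. DESeq2 also called IER3 (FDR = 0.0141) and IER5 (FDR = 0.00479). Pairing the cultures with the block changed no call of a member other than EGR1, IER3 and SRF. Total-count scaling turned NR4A1 (-0.0123) and ELK4 (-0.0069). NR4A1 was -0.06 without vehicle culture 1 and ranged from -0.0897 (without TGFβ culture 2) to 0.1055 over the cultures left out. ELK4 was -0.02 without vehicle culture 1, -0.0015 without TGFβ culture 1 and -0.0346 without TGFβ culture 2, within a range up to 0.1159. The causes were not tested. The median of all genes stayed within 0.1 of 0 under every scaling. Depth limits EGR2, EGR3 and EGR4, with 3 to 112 reads per culture, and counting error alone is large there.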
